A study of Mus musculus with 16 samples.

Results

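Mature miR-7 and miR-671, the microRNAs (miRNAs) that pair with the circular RNA Cdr1as, were followed in the prefrontal cortex of PS19 tauopathy mice and wild-type (WT) mice. The 5 members, mmu-miR-7a-5p, mmu-miR-7b-5p, mmu-miR-7a-1-3p, mmu-miR-671-5p and mmu-miR-671-3p, named below without the mouse prefix mmu, were taken by their mature names from the 18488 non-coding RNA features of the table, of which 1241 were mature miRNAs. Of these, 4 had reads in every library and miR-671-5p in 15 of 16, and all 5 passed the filter on low values, a mean normalized count of at least 5. Small RNA was sequenced from 16 libraries, 8 from PS19 mice and 8 from WT littermates, all about 9.6 months old, with males and females in equal numbers. PS19 mice were heterozygous (PS19+/-) for a transgene of human MAPT with the P301S mutation, driven by the mouse prion protein promoter, which is not restricted to 1 cell type, on a mixed C57BL/6 and C3H background that the littermates shared. Each library came from 10 mg of frozen tissue. The library names in the labels open with a letter, called the code letter here, whose meaning was not stated: all 8 PS19 libraries and 2 of the WT libraries had a G, another 4 WT libraries an F, and the remaining 2 an A.

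miRNAs are cut from hairpin precursors, and either arm of the hairpin, named 5p or 3p, can be loaded into an Argonaute protein and guide it to target RNAs through bases 2 to 8, the seed. miR-7 is an ancient miRNA known from neurons and neuroendocrine cells. Cdr1as is a neuronal circular RNA read from the strand opposite the Cdr1 gene. It carries many sites for miR-7 and a site for miR-671, which can direct its cleavage, so that miR-7, miR-671 and Cdr1as form a known circuit in mammalian brain. The circular RNA itself was not analysed here, because the circular RNA features carry numbers in place of names or positions.

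The mature sequences show which members can read the same sites. They are RefSeq sequences of the mouse assembly GRCm38.p6, matched by name for 5 of 5 members and written 5′ to 3′ with the seed in capitals.
miR-7a-5p: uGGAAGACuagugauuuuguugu
miR-7b-5p: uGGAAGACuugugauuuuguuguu
miR-7a-1-3p: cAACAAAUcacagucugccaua
miR-671-5p: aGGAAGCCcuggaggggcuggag
miR-671-3p: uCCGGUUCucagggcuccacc
miR-7a-5p and miR-7b-5p had the same seed and differed over their first 23 bases by a single substitution, A10U, counted from the 5′ end of miR-7a-5p. miR-7b-5p was 24 bases long and miR-7a-5p 23. No other mature miRNA of the annotation shared a seed with any of the 5 members, so that the miR-7 seed family consisted of these miRNAs alone.

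miR-7a-5p is made from 2 hairpins, and the 3p arm is the part that tells them apart. In GRCm38, mir-7a-1 lies at chr13:58392779-58392886 on the minus strand, in an intron of Hnrnpk. mir-7a-2 lies at chr7:78888277-78888373 on the plus strand with no gene around it. mir-7b lies at chr17:56242988-56243098 on the plus strand, also outside other genes. mir-671 lies at chr5:24592114-24592211 on the plus strand, within a coding exon of Chpf2, and it also overlaps an exon of Smarcd3 on the other strand. The 3p arm of mir-7a-2, a row related to the members, is shown for comparison with miR-7a-1-3p.
miR-7a-2-3p: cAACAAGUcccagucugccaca
From miR-7a-1-3p to miR-7a-2-3p the substitutions were A7G, A10C and U21C, the first of them inside the seed.

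Seed matches of miR-7 were counted on the Cdr1as strand. The annotated Cdr1 transcript covers 1554 bases at chrX:61184005-61185558 on the minus strand of GRCm38. Its opposite strand, from which Cdr1as is read, held 79 matches to the miR-7 seed (the letters GTCTTCC), and the Cdr1 strand itself held 0. The matches stood at a median spacing of 18 bases from one to the next. Of the first 1554 bases of 52759 annotated transcripts at least that long, 13.9% held the motif on the transcript strand and 30.9% on either strand. The mean was 0.153 matches per window on the transcript strand, and the highest count in a transcript other than Cdr1 was 55. Transcripts read from the opposite strand of the Cdr1 locus were not left out of that comparison. A stretch of 120 bases of the opposite strand, chrX:61184294-61184413 on the plus strand, held 7 matches and is printed with them in capitals.
Cdr1as strand: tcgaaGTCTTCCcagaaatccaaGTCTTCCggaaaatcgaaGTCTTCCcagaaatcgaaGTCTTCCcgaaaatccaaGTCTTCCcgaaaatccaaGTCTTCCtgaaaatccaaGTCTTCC
The seed match of miR-671-5p (GGCTTCC), that of miR-671-3p (GAACCGG) and that of miR-7a-1-3p (ATTTGTT) were found 0 times on either strand of the same 1554 bases. Among the transcript windows, 18.2%, 5.55% and 10.8% held these motifs on the transcript strand. A match is a description of letters and not a measured site, and the absence of a motif concerns this window alone.

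**Figure D1:**
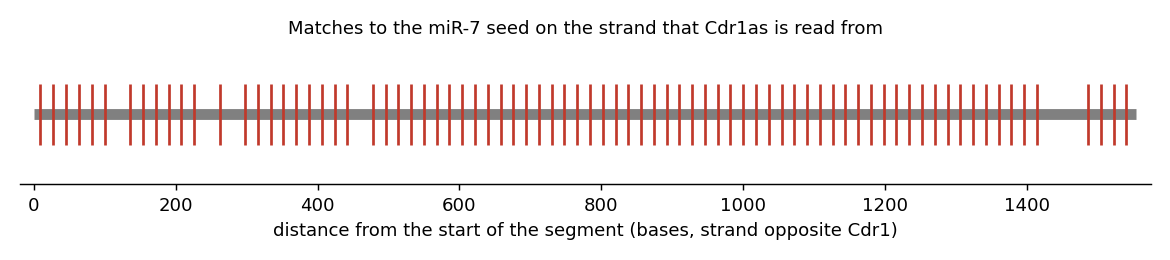
Positions of the 79 matches to the miR-7 seed along the 1554 bases opposite Cdr1 in GRCm38. The horizontal axis is the distance in bases from the start of the segment, and each red line is 1 match; they fill the segment at a median spacing of 18 bases.

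The libraries held between 13187096 and 23058568 reads assigned to features, and mature miRNAs took 14.8% to 32.0% of the normalized signal. The neuronal marker miRNAs (5 of 5 present in every library) summed to 294699 to 1026143 normalized counts in PS19 and 341530 to 953149 in WT, and the red blood cell markers to 6.64 to 41.1 and 1.90 to 30.8, with miR-144-3p and miR-144-5p at 0 in some libraries. The oligodendrocyte markers (3 miRNAs, with miR-219a-5p at 0 in some libraries) summed to 18523 to 52341 in PS19, with a median of 36709, and to 13367 to 46513 in WT, with a median of 23942. The vascular markers (3 miRNAs) summed to 15206 to 61634 in PS19, with a median of 33709, and to 17840 to 60601 in WT, with a median of 47390. The microglial markers (5 miRNAs, with miR-142a-3p and miR-142a-5p at 0 in some libraries) summed to 571 to 3013 and 433 to 1539, respectively. All of these ranges overlapped between genotypes, and their part in the results was not tested. A mean of at least 5 was reached by 2 of 5 microglial, 2 of 3 oligodendrocyte and 1 of 3 red blood cell markers. The neuronal sum rested mostly on miR-128-3p (mean 486403 over all libraries). The oligodendrocyte sum rested mostly on miR-219a-2-3p (30515) and the microglial sum on miR-146a-5p (1203). In bulk tissue, fewer cells of a type and less RNA per cell cannot be told apart.

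miR-7a-5p was the most abundant member and took the rank 9 among the 1241 mature miRNAs by mean. Its normalized count, the reads of a library divided by that library's size factor, ranged in WT from 20661 to 303218 with a median of 56658. In PS19 it ranged from 25239 to 283440 with a median of 51155. The groups overlapped over most of their range, and the high values were found in both. The 5 highest libraries were WT replicate 3 (303218), WT replicate 2 (286769), PS19 replicate 1 (283440), WT replicate 1 (178811) and PS19 replicate 5 (116605). The next library, WT replicate 8, stood at 59892. As a share of all mature miRNA signal, miR-7a-5p made up 0.662% to 4.11% in PS19 and 0.925% to 6.17% in WT. The mean share was 1.74% ± 1.30 (SD, n = 8) for the PS19 mice, against 2.40% ± 2.02 (SD, n = 8) for the WT mice.

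miR-7b-5p, which has the same seed, followed nearly the same order of libraries at a lower level and took the rank 17. Its normalized count ranged from 14810 to 134002 in WT, with a median of 35776. In PS19 it ranged from 15345 to 140052, with a median of 24711. The highest values came from PS19 replicate 1 (140052), WT replicate 3 (134002) and WT replicate 2 (126876). The groups overlapped, and 6 of 8 PS19 libraries lay below the WT median.

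The 3p arm of the first mir-7a hairpin was far less abundant than the arm opposite it. miR-7a-1-3p ranged from 18.4 to 104 normalized counts in WT, with a median of 55.7. In PS19 it ranged from 15.4 to 61.9, with a median of 37.1. WT replicates 8, 4 and 3 lay above every PS19 library, and the other 5 WT libraries lay within the PS19 range. These values rested on 21 to 64 reads per PS19 library and 25 to 111 per WT library.

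Of the miR-671 arms, the 3p arm was the abundant one. miR-671-3p ranged from 599 to 1576 normalized counts in WT, with a median of 925. In PS19 it ranged from 618 to 1724, with a median of 1176. PS19 replicates 3 and 4 exceeded every WT library, while 3 PS19 libraries lay below the WT median. miR-671-5p, the arm that pairs with Cdr1as, was at the edge of detection. It ranged from 4.0 to 26.5 normalized counts in WT, with a median of 8.94. In PS19 it ranged from 0 to 21.7, with a median of 7.13. PS19 replicate 6 had 0 reads, which allows up to 3 reads or 2.85 normalized counts, a limit that covers counting error only.

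**Figure D2:**
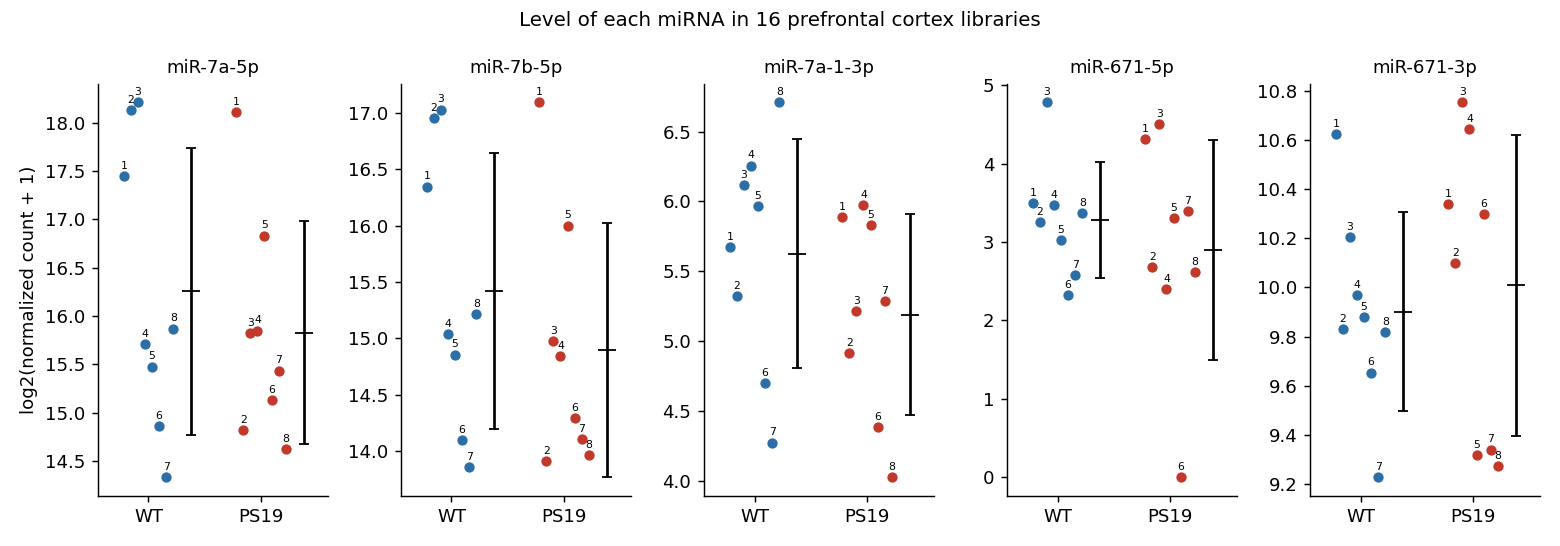
Level of each member in the 16 libraries. The vertical axes show log2(normalized count + 1), each with its own range; every point is 1 library with its replicate number, blue for WT and red for PS19, and the black bars give the group mean and SD. In all 5 panels the genotypes overlap, and miR-7a-5p and miR-7b-5p are high in the same 5 libraries, 3 WT and 2 PS19.

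For the order of the members, levels were divided by the length of the mature sequence. The order was miR-7a-5p, miR-7b-5p, miR-671-3p, miR-7a-1-3p and miR-671-5p in 16 of 16 libraries. Per base, miR-7a-5p exceeded miR-7b-5p by a median of 1.87-fold, from 1.46-fold to 2.63-fold, although the ranges of both miRNAs over libraries overlapped. miR-7b-5p exceeded miR-671-3p by a median of 25.7-fold, and miR-671-3p exceeded miR-7a-1-3p by 25.8-fold, and neither of these pairs overlapped in range. miR-7a-1-3p exceeded miR-671-5p by a median of 5.10-fold over the 15 libraries with reads of both, and their ranges overlapped.

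No member differed between genotypes beyond the spread between libraries. In the limma fit over the 6024 features that passed the filter, 0 features reached an adjusted p-value under 0.05 (0% called), whereas DESeq2 called 15 and the edgeR quasi-likelihood test 0, none of them a member, although DESeq2 gave no adjusted p-value for miR-671-5p. At an unadjusted p-value under 0.05, limma counted 241 features (4.0% called), of which 129 were lower in PS19 (2.14%) and 112 higher (1.86%), and 0 of the 5 members. Of the features called at that level, 107 of 183 were higher when values were scaled to the library total, 76 of 124 when scaled to the mature miRNA total, and 150 of 265 with edgeR. Groups without overlap were found for 0.0996% of features and for 0 members. All differences are on the scale of log2(normalized count + 1), PS19 minus WT, where the added 1 weighs on low rows.

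The 4 members other than miR-671-3p had lower means in PS19 without passing the test. For miR-7a-5p the log2 difference was -0.43 (SE 0.55, 95% interval -1.57 to 0.72), with a limma adjusted p-value of 0.9998 and an exact permutation p-value of 0.525. For miR-7b-5p it was -0.53 (SE 0.49, -1.55 to 0.50), with an exact permutation p-value of 0.373. These intervals include both a fall to below the level of WT by more than 1.5 on the log2 scale and a rise, so that the size of a genotype effect on miR-7 was not determined at this spread. For miR-7a-1-3p the difference was -0.44 (SE 0.35, -1.16 to 0.29), with an exact permutation p-value of 0.271.

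For miR-671-5p the difference was -0.38 (SE 0.49, -1.41 to 0.64), with an exact permutation p-value of 0.546, and it was 0.030 without the library that had 0 reads, PS19 replicate 6. On the recovered reads the miR-671-5p difference was -0.17 with DESeq2 and -0.18 with edgeR. miR-671-3p was the member with the narrowest interval. Its log2 difference was 0.11 (SE 0.26, -0.42 to 0.64), with an exact permutation p-value of 0.681. The exact tests were two-sided over the 12870 ways to assign 8 and 8 libraries. The median log2 difference of the 5 members was -0.43, beside -0.02 over all tested features and -0.13 over the 521 tested mature miRNAs, of which 66.4% were lower in PS19.

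Within the libraries of code letter G, the only ones with both genotypes, 8 PS19 libraries stood against 2 WT libraries. There miR-7a-5p differed by -1.09 (SE 0.73) and miR-7b-5p by -1.10 (SE 0.69), without passing the limma test (unadjusted p-values 0.152 and 0.129). One of the 2 WT libraries in this comparison was replicate 2, one of the 5 libraries with high miR-7a-5p. Genotype and code letter cannot be told apart for the letters F and A, which held WT libraries alone.

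The rows related to the members, the precursors and the other 3p arms, were added to show which hairpins the reads came from. Of the 6 related rows, 5 passed the filter and 0 reached an unadjusted p-value under 0.05. The log2 differences were -0.40 (SE 0.51) for the precursor mir-7a-1, -0.41 (SE 0.51) for mir-7a-2, -0.63 (SE 0.46) for mir-7b, 0.26 (SE 0.37) for mir-671 and -0.60 (SE 0.64) for miR-7a-2-3p. miR-7b-3p, the passenger arm of mir-7b, had a mean of 3.0 normalized counts and was not tested in the fit. The mir-7a-1 and mir-7a-2 rows were not independent of each other, since in each library the second held 94.8% to 99.1% of the count of the first. They differed by 8 to 29 reads per library, and the mir-7a-1 row held 0.805% to 1.43% of the miR-7a-5p count. How reads that fit several rows were shared out was not stated, so that the split between these rows, and between miR-7a-5p and miR-7b-5p, is uncertain.

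**Figure D3:**
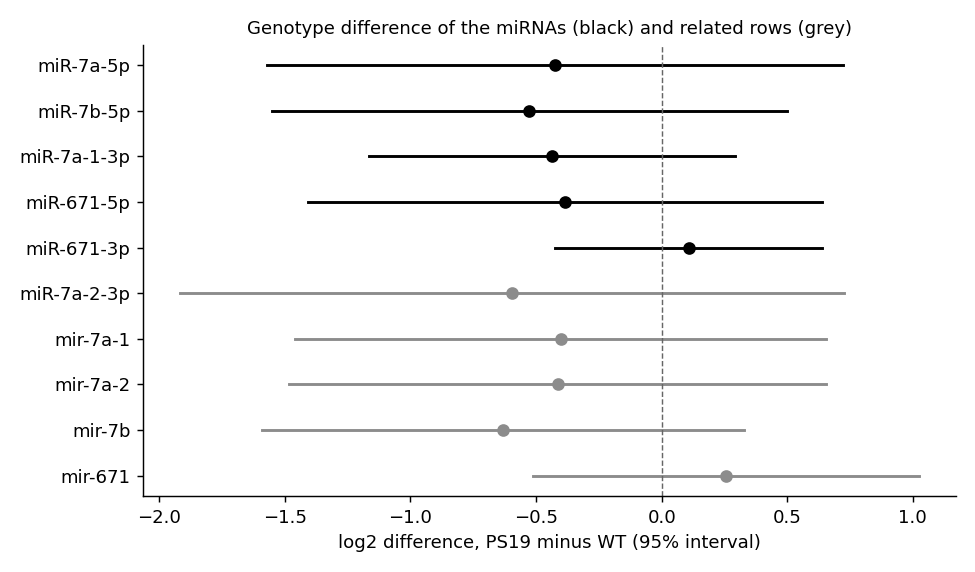
Difference between genotypes for the 5 members (black) and the 5 related rows that passed the filter (grey). The horizontal axis is the log2 difference, PS19 minus WT; points are estimates and lines 95% intervals of the limma fit with 8 libraries per group. All 10 intervals include 0, and that of miR-671-3p is the narrowest.

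What set miR-7a-5p and miR-7b-5p apart from miR-671-3p was their spread between libraries of the same genotype. The SD of the log2 level within genotype was 1.33 for miR-7a-5p and 1.18 for miR-7b-5p, against 0.52 for miR-671-3p. The less abundant arms did not follow this contrast. Their SD was 0.77 for miR-7a-1-3p and 1.12 for miR-671-5p, or 0.57 and 1.02 when scaled to the mature miRNA total. Among the 149 mature miRNAs with a mean of at least 500 normalized counts, miR-7a-5p had the rank 5 by this SD, miR-7b-5p the rank 6 and miR-671-3p the rank 126, and the median was 0.68. When each library was scaled to its mature miRNA total, the SD was 1.01 for miR-7a-5p (rank 5), 0.87 for miR-7b-5p (rank 10) and 0.28 for miR-671-3p (rank 117), against a median of 0.37. Across all 16 libraries the highest count of miR-7a-5p was 14.7-fold the lowest, that of miR-7b-5p 9.46-fold and that of miR-671-3p 2.88-fold. The 5 libraries with the most miR-7a-5p held all 3 code letters and both genotypes. By replicate number they were 1, 2 and 3 in WT and 1 and 5 in PS19, and with that number as a linear term the SE of the miR-7a-5p difference was 0.40 in place of 0.55 (unadjusted limma p-value 0.298). What the number stands for was not stated.

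**Figure D4:**
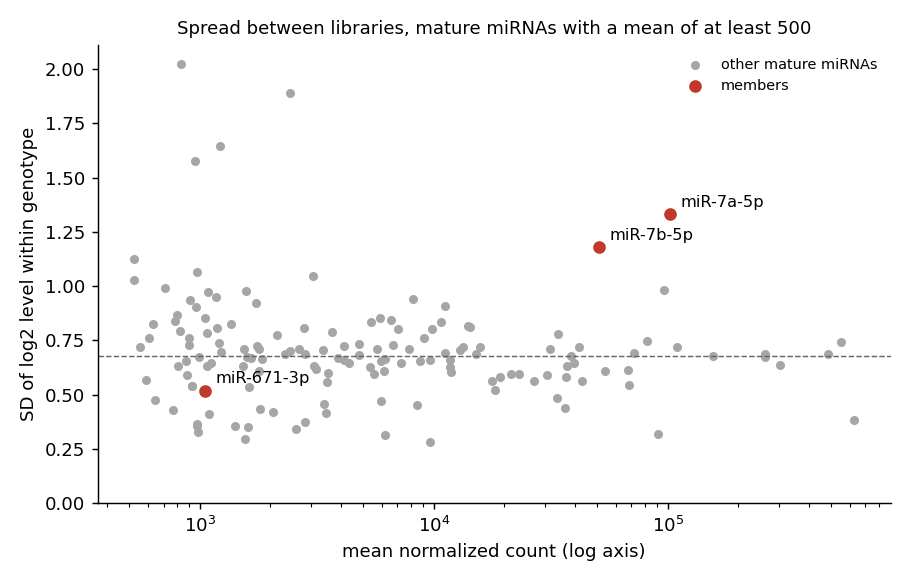
Spread between libraries of the 149 mature miRNAs with a mean of at least 500. The horizontal axis is the mean normalized count on a log scale and the vertical axis the SD of the log2 level within genotype; the dashed line is the median SD (0.68). miR-7a-5p (1.33) has the rank 5 and miR-7b-5p (1.18) the rank 6, and miR-671-3p (0.52) lies below the line.

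Marker miRNAs of other cell types were set beside this spread. The neuroendocrine and olfactory list (6 miRNAs, 5 of them with a mean of at least 5, with miR-141-3p and miR-429-3p at 0 in some libraries) summed to 801 to 2828 normalized counts in PS19 and 781 to 5662 in WT. In the 5 libraries with the most miR-7a-5p it lay between 1653 and 5662, and in the other 11 between 781 and 4213. The choroid plexus list (3 miRNAs, with miR-449a-5p at 0 in some libraries) lay between 1403 and 4154 and between 545 and 6604, respectively. The neuronal list lay between 389729 and 953149 and between 294699 and 1026143. All 3 ranges overlapped, and the part of cell composition in the spread of miR-7 was not tested.

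miR-7a-5p and miR-7b-5p moved together over the libraries. On the log2 scale, Pearson's r was 0.99 and Spearman's rho 0.96 over 16 libraries, with permutation p-values of 1e-05 for both, the smallest that 100000 resamples can give, and 4e-05 after Benjamini-Hochberg adjustment over the 4 pairs of members examined. Without WT replicates 2 and 3, the libraries farthest from the median, r was 0.98. It was 0.98 after scaling to the mature miRNA total, and within genotype it was 0.985 in PS19 and 0.997 in WT (exact permutation p-values 0.000273 and 2.48e-05). Over the 11 libraries without the 5 highest it was 0.91, and 0.75 when these were scaled to the mature miRNA total, where the call was lost after adjustment (permutation p-value 0.0132, adjusted 0.0509, rho 0.59). The points share the library's size factor, and the pair differs by a single base over most of its length.

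The ratio of the paralogs did not differ between genotypes beyond the spread. For this comparison of genotypes counts were not divided by length. The normalized count of miR-7a-5p was 1.58 to 2.52 times that of miR-7b-5p in PS19, with a median of 1.85, and 1.39 to 2.26 times in WT, with a median of 1.64. The log2 ratio averaged 0.93 ± 0.20 (SD, n = 8) for PS19 mice and 0.83 ± 0.28 (SD, n = 8) for WT mice. The difference was 0.10, with a two-sided exact permutation p-value of 0.412, and 0.0092 within code letter G. A ratio within a library does not depend on the size factor.

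The 3p arms of the 2 mir-7a hairpins were set against miR-7a-5p. miR-7a-1-3p correlated with it at r = 0.56 and rho = 0.69 (permutation p-values 0.026 and 0.00397, adjusted 0.0347 and 0.00794), and at r = 0.61 without the 2 farthest libraries. After scaling to the mature miRNA total r was 0.15 (permutation p-value 0.581). Within genotype it was 0.77 in PS19 and 0.39 in WT. Over the 11 libraries without the 5 highest in miR-7a-5p, r was 0.85 (permutation p-value 0.00141), and 0.63 when these were scaled to the mature miRNA total (permutation p-value 0.0336, adjusted 0.0509).

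The pair of miR-7a-5p with miR-7a-2-3p was added after the data were seen, and gave r = 0.75 and rho = 0.63 (permutation p-values 0.00116 and 0.0108, unadjusted). After scaling to the mature miRNA total r was 0.75 and rho 0.82 (permutation p-values 0.00064 and 0.00021). Without WT replicates 2 and 3 r was 0.64 and rho 0.46 (permutation p-values 0.0148 and 0.098). Within genotype r was 0.63 in PS19 and 0.87 in WT (exact permutation p-values 0.0939 and 0.00714). There rho was 0.31 and 0.86 (exact permutation p-values 0.462 and 0.0107). Over the same 11 libraries r was -0.11 (permutation p-value 0.744), and 0.52 when these were scaled to the mature miRNA total (permutation p-value 0.103). The call on r was lost in 3 of 8 alternatives. Leaving out libraries by their miR-7a-5p narrows the range of that miRNA, and the difference between the correlations of the 3p arms was not tested.

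By reads, the share of miR-7a-1-3p among the 3p reads of both mir-7a hairpins ranged from 44.2% to 96.2% over libraries, with a median of 73.7% in PS19 and 73.9% in WT. miR-7a-2-3p ranged from 1.45 to 70.8 normalized counts in PS19, with a median of 9.46, and from 4.02 to 86.4 in WT, with a median of 18.7. In the 5 libraries with the most miR-7a-5p, miR-7a-2-3p lay between 33.3 and 86.4 normalized counts, and in the other 11 between 1.45 and 20.5. As a share of all mature miRNA signal these ranges overlapped, at 0.000497% to 0.00210% and 2.32e-05% to 0.000619%. Some miRNAs of other hairpins, given below, also separated these libraries by normalized count. Over the same libraries, miR-7a-1-3p lay between 39.0 and 68.4 and between 15.4 and 104. No test was run between libraries chosen in this way. The 5p reads themselves cannot be assigned to 1 hairpin, because the sequence is the same.

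**Figure D5:**
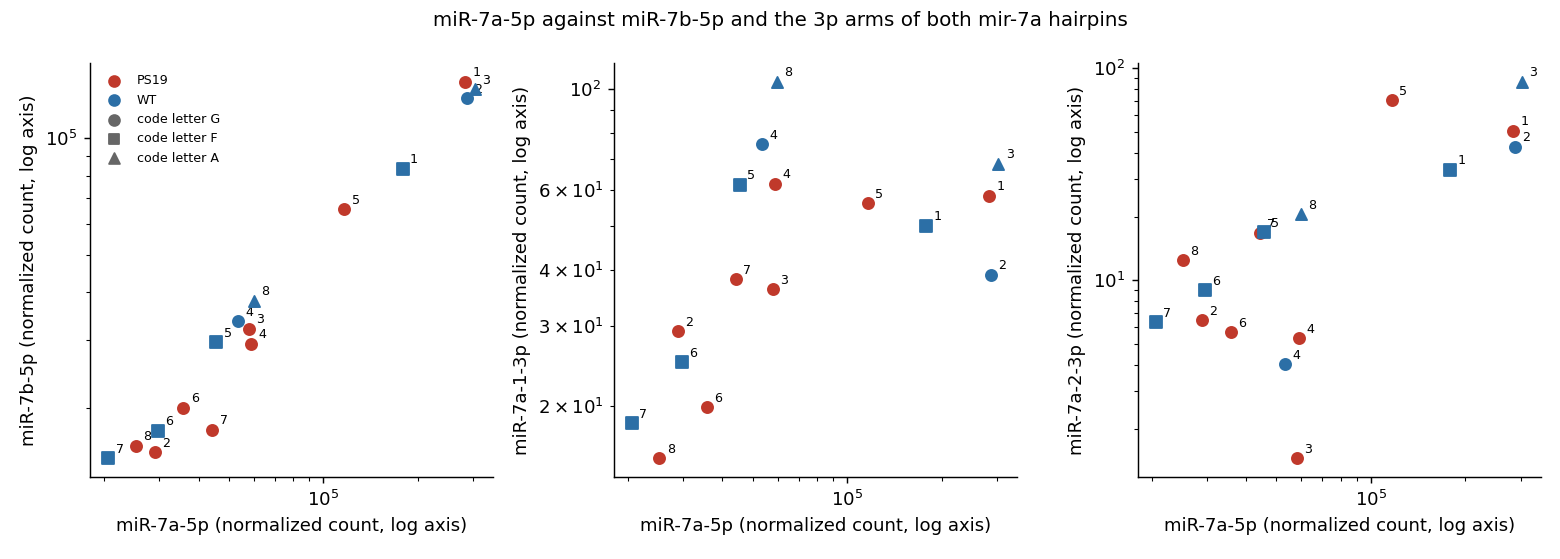
miR-7a-5p against miR-7b-5p (left), miR-7a-1-3p (middle) and miR-7a-2-3p (right), in normalized counts on log axes. Points are the 16 libraries with their replicate numbers, red for PS19 and blue for WT, and the shape gives the code letter. The left panel lies near a line (r = 0.99). miR-7a-1-3p lies between 39.0 and 68.4 in the 5 libraries with the most miR-7a-5p and between 15.4 and 104 in the rest. miR-7a-2-3p is above 33.3 in those 5 and below 20.6 in the rest. Its shares of mature miRNA signal overlap, and some miRNAs of other hairpins separate these libraries as well.

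Arm ratios, the count of the 5p arm over that of the 3p arm, were compared between genotypes in a limma fit over all hairpins with both arms at a mean of at least 20. Of 86 hairpins, 0 passed at an adjusted p-value under 0.05 and 3 at an unadjusted one (3.49%). By counts not divided by length, miR-7a-5p was 939 to 4786 times miR-7a-1-3p in PS19 and 573 to 7172 times in WT. The log2 difference of this ratio was 0.01 (SE 0.49, 95% interval -1.01 to 1.03), with a limma adjusted p-value of 0.985, and its sign changed under 4 other settings and in 8 of the 16 fits with 1 library left out. Part of the 5p reads may come from the second hairpin, so that this is a ratio of rows and not of the arms of 1 precursor.

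miR-671-5p was too low for that filter, and its arm ratio was taken from the fit over the 122 hairpins with both arms at a mean of at least 5, where 0 passed the adjusted and 6 the unadjusted threshold (4.92%). By counts not divided by length, miR-671-3p was 61.6 to 1258 times miR-671-5p in PS19 and 42.8 to 161 times in WT. The highest of these, 1258, belonged to PS19 replicate 6 and rested on 0 reads of the 5p arm and the added count of 1. The log2 difference of 5p over 3p was -0.49 (SE 0.51, -1.56 to 0.58), with a limma adjusted p-value of 0.801, and it was -0.036 without that library.

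The correlation of the miR-671 arms did not pass the permutation test over the 16 libraries, with r = 0.15 and rho = 0.34 (permutation p-values 0.594 and 0.196). The sign depended on the scaling, since r was -0.66 (permutation p-value 0.00444) after scaling to the mature miRNA total and -0.25 after scaling to the library total. Within genotype r was 0.015 in PS19 and 0.64 in WT (exact permutation p-values 0.976 and 0.0883), and the WT rho was 0.86 (exact permutation p-value 0.0107, adjusted 0.0214). miR-7a-5p and miR-671-5p correlated at r = 0.58 and rho = 0.66 (permutation p-values 0.0132 and 0.00669, adjusted 0.0264 and 0.00892). The call on r was lost in 6 of 8 alternatives. Without WT replicates 2 and 3 r was 0.53 and rho 0.63 (permutation p-values 0.0576 and 0.0183). After scaling to the mature miRNA total r was 0.36 (permutation p-value 0.177, adjusted 0.236), and after scaling to the library total 0.47 (0.0611). It was 0.53 within PS19 (exact permutation p-value 0.180), 0.77 within WT (0.014) and 0.41 over the 11 libraries without the 5 highest in miR-7a-5p (permutation p-value 0.222). miR-671-5p had at most 31 reads in a library.

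The mature miRNAs whose pattern was most like that of a member were named from 377 rows by Pearson's r over the 16 libraries, on log2 levels scaled to the mature miRNA total after subtraction of each genotype's mean. For miR-7a-5p these were miR-666-5p (r = 0.93), miR-344-3p (0.87) and miR-1298-3p (0.87). For miR-7b-5p they were miR-770-5p (0.89), miR-666-5p (0.89) and miR-6540-5p (0.87). miR-666-5p was the name that both lists had in common, and it ranged from 2080 to 13935 normalized counts. The lowest count of miR-1298-3p in the 5 libraries with the most miR-7a-5p was 233, against at most 187 in the other 11. For miR-770-5p these values were 204 and 142, and for miR-6540-5p 990 and 534. The ranges of miR-666-5p and miR-344-3p overlapped. A separation of these libraries by count was thus not particular to miR-7a-2-3p.

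The miRNAs most like miR-7a-1-3p were others, namely miR-148b-3p (r = 0.87), miR-3068-5p (0.80) and miR-191-5p (0.79). For miR-671-3p they were miR-1843b-3p (0.87), miR-8103 (0.77) and miR-195a-3p (0.72). None of the names for these 2 members was among those for miR-7a-5p or miR-7b-5p. These values are descriptions over libraries that share the scaling, and miR-671-5p was too low to enter the comparison.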

How the data were processed

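Small RNA libraries of 16 mice were made with the NEBNext small RNA kit and sequenced single-end. The values used were a normalized signal: the authors aligned reads with STAR 2.5.3a inside COMPSRA to mm10 (GRCm38) and deposited read counts divided by 1 DESeq2 1.42.1 size factor per library. Within 0.01 of a read, 100% of values in every library were whole multiples of the smallest value, which gave reads back (13187096 to 23058568 per library); in 2 libraries 1 read was worth nearly 1, on weaker evidence. The authors' log2 fold changes, Wald score, p-values and mean signal, deposited in the same table, were not used.

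Features with a mean of at least 5 were fitted as log2(value + 1) with limma 3.58.1 (lmFit, eBayes with trend, genotype only) in R 4.3.3, with Benjamini-Hochberg adjustment over 6024 features. The fit was also run on simulated data, whose outcome is not given and on which no result here rests. Exact permutation tests used Python 3.11.15, numpy 2.4.6 and scipy 1.17.1. DESeq2 1.42.0 and edgeR 4.0.16 on the recovered reads, other scalings, filters, pseudocounts and weights, the replicate number, the code letter and each library left out were alternatives. No column of library values was left out (0 columns). Sequences came from RefSeq (GRCm38.p6) and GENCODE M21.

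The members and lists were chosen with earlier results of these data known. Named were the 5 members, the 6 related rows of the same hairpins, mature miRNAs sharing a member's seed, and for each member with a mean of at least 20 the 3 mature miRNAs most like it.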

Additional observations from a re-analysis of the deposited data

Results flagged for a closer look

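Of 30 groups of 8 values examined (the members, the related rows and their ratios in each genotype), 9 had a highest or lowest library that stood farther from the next one than Dixon's 95% critical value for 8 values allows, as a share of the group's range. Chance alone gives about 1 in 20 for normally distributed values, or 1.5 of 30, but the counts were skewed and the rows of a hairpin are not independent. Of the 22 groups of counts, 8 stood past this value as counts, 1 on the log2 scale, chosen after seeing the data, and 0 on both. The group past it on the log2 scale was miR-671-5p in PS19 (0.532), where the library with 0 reads was the lowest. In PS19, replicate 1 was the highest library for miR-7a-5p (a gap of 0.646 of the range, 283440 against 116605 normalized counts), miR-7b-5p (0.597, 140052 against 65578), mir-7a-1 (0.664), mir-7a-2 (0.668) and mir-7b (0.614). Also in PS19, replicate 3 was the highest for miR-7b-3p (0.625, 10.1 against 3.80 normalized counts).

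In WT, replicate 3 was the highest library for miR-671-5p (0.723, 26.5 against 10.3 normalized counts) and for miR-7a-2-3p (0.529, 86.4 against 42.8). The log2 ratio of miR-671-3p over miR-671-5p in WT was lowest in the same library (0.539, 5.42 against 6.45). No library was dropped for these gaps, and their cause was not tested.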

How the results depend on the processing

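Over 144 alternative fits of the 5 members, 143 kept the direction and 0 reached an unadjusted p-value under 0.05 (smallest 0.0717). The exception was miR-671-5p without PS19 replicate 6, at 0.030. The replicate block, the replicate number as a linear term and the other filters could not alter the estimate of a row. The code letter as a term gave the same estimate as the fit within code letter G. These settings are counted among the alternative fits of the members and of the related rows, so the counts overstate how far direction was tested. With 1 library left out, the log2 difference ranged from -0.75 to -0.15 for miR-7a-5p, -0.84 to -0.30 for miR-7b-5p (both lowest without PS19 replicate 1 and highest without WT replicate 3), -0.63 to -0.27 for miR-7a-1-3p, -0.61 to 0.030 for miR-671-5p and 0.00080 to 0.21 for miR-671-3p. A mean of at least 20 left out miR-671-5p. The 144 alternative fits of the related rows kept the direction but not the size: over all settings they ranged from -0.94 to -0.13 for mir-7a-1, -0.95 to -0.14 for mir-7a-2, -0.95 to -0.38 for mir-7b, 0.042 (without WT replicate 2) to 0.94 (within code letter G) for mir-671 and -0.95 to -0.22 for miR-7a-2-3p. The count of features at an adjusted p-value under 0.05 was 15 with DESeq2 on the recovered reads. The count at an unadjusted one was 124 scaled to the mature miRNA total, 680 without a filter on low values, 136 with a mean of at least 20, 418 with array weights, 419 with the replicate block, 124 with the code letter as a term and 121 within code letter G, and 171 (without WT replicate 8) to 321 (without PS19 replicate 1) with 1 library left out. The causes were not tested.

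The replicate numbers were not taken to pair the libraries, since 6 of 8 pairs and not all correlated above 0.1. The 8 correlations were positive (0.0446 to 0.456), and 2 of 8 libraries correlated best with their own number, so that a part shared by number cannot be set aside. With the replicate block, miR-7a-5p remained at -0.43 (unadjusted limma p-value 0.336), and 0 members passed. The miR-7a arm ratio was -0.027 with a pseudocount of 5, -0.50 with array weights, -0.49 with the code letter as a term and -0.49 within code letter G, and -0.22 to 0.32 with 1 library left out. A minimum of 50 for both arms left no value. The miR-671 arm ratio ranged from -0.66 to -0.036 and the log2 ratio of miR-7a-5p to miR-7b-5p from 0.043 to 0.15 with 1 library left out, and the latter was 0.0092 within code letter G.

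Settings without the 5 highest libraries were chosen after seeing the data. For the miR-671 arms, r was -0.66 scaled to the mature miRNA total, -0.25 to the library total and -0.63 mature-scaled without the 5 libraries. For miR-7a-5p with miR-671-5p it was 0.53 without the 2 farthest libraries, 0.36 and 0.47 under the 2 scalings, 0.53 within PS19, 0.41 without the 5 libraries and 0.25 mature-scaled without them. For miR-7a-5p with miR-7a-1-3p it was 0.15 and 0.40 under the 2 scalings and 0.39 within WT, and 0.85 without the 5 libraries. With miR-7a-2-3p it was -0.11 without the 5 libraries. Depth limits miR-671-5p (0 to 31 reads per library), mir-671 (1 to 11) and miR-7b-3p (0 to 8).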

Other observations

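Only 4 of the mature miRNAs with a mean of at least 500 normalized counts varied more within genotype than miR-7a-5p, and they are named here after their values were seen. The SD of the log2 level was 2.02 for miR-187-3p, 1.89 for miR-1298-5p, 1.64 for miR-182-5p and 1.58 for miR-183-5p. Their means were 831, 2434, 1220 and 956 normalized counts, so that miR-7a-5p, at 101840, was the most abundant miRNA with a spread of this size. miR-182 and miR-183 are known to be made from a shared cluster.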
